A study of Mus musculus with 6 samples.

Results

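The tumour necrosis factor (TNF) superfamily was read out in kidneys that lacked transferrin receptor 1 (TfR1) in the nephron lineage. Members were taken by symbol: every gene listed as Tnfrsf, Tnfsf or Tnfaip followed by a digit, plus Tnf, Fas and Fasl. The rule gave 42 of the 24422 genes in the count tables, namely 21 receptors, 13 ligands and 8 Tnfaip genes. The Tnfaip genes are neither ligands nor receptors and are named for induction of their products by TNF. Tnfaip8l1, Tnfaip8l2 and Tnfaip8l3 are named instead for their likeness to Tnfaip8. Fold changes are given for the 30 members with 60 or more reads summed over the 6 libraries (16 receptors, 7 ligands and 7 Tnfaip genes). Tnfsf4, with 90 reads, and Tnfsf13, with 152, lay just inside that limit, and Tnfaip8l3, with 50, and Tnf, with 38, lay just outside it.

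Poly-A RNA from kidneys of C57BL/6 mice at postnatal day 13, kept on an iron sufficient diet (220 ppm), was sequenced in 3 Control libraries, labelled wild type, and 3 TfR1 knockout libraries, labelled Tfr1f/f;SixCre in the genotype field and TfR1KO;Six2Cre in the title. In the knockout the Six2 driven recombinase removed the floxed part of the TfR1 gene (Tfrc), which holds the transmembrane domain. This recombinase acts in progenitors of the nephron and not in the collecting duct, stroma, vessels or blood cells. The study describes TfR1+ cells that escaped deletion. The study describes its controls as wild type littermates and counts its replicates as mice.

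Ligands of the TNF superfamily are mostly trimers on the cell surface or shed from it. They bind receptors that either carry a cytoplasmic death domain, through which caspases can be activated, or recruit TRAF adaptors, through which the transcription factor NF-kB and stress kinases are activated. In the kidney, tubule cells, endothelium and leukocytes express different sets of these receptors, and the family is best known there for its part in tubule injury and inflammation. Fas and Tnfrsf10b are known targets of p53, and Tnfaip3 is a known target of NF-kB that restrains the same pathway.

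Total counts ran from 16591156 to 22898008 per library. Control replicate 3 stood apart from Control replicates 1 and 2 (Pearson r 0.959 and 0.965 across genes with 60 or more reads, against 0.983 between the other pair), and TfR1 knockout replicate 2 was the farthest from the Control libraries (r 0.902 to 0.909). Among marker lists, the 18 macrophage genes summed to 3461 and 3558 normalised reads in Control replicates 1 and 2, to 6134 in Control replicate 3, and to between 10902 and 13089.8 in knockout libraries. Of them, 13 passed as higher, 0 as lower, and none was at 0. The 12 stroma markers summed to between 93040 and 185107 reads in Control and between 51478 and 91471 in knockout libraries, and the 14 kidney epithelium markers, present in every library, to between 119842 and 238671 and between 98881 and 142744. Control replicate 3 held the highest stroma sum (185107, against 94359 and 93040 in Control replicates 1 and 2). Its kidney epithelium sum was the lowest in Control (119842, against 227817 and 238671) and lay inside the knockout range. Those sums include Aqp2, a marker of the collecting duct, where the recombinase does not act. Aqp2 had 5747, 5581 and 2409 normalised reads in Control and 17805, 50719 and 23564 in knockout libraries, in replicate order. It thus raised the knockout sums more than the Control sums, and the overlap depends on it. The 10 neutrophil markers summed to between 182 and 480.1 and between 395 and 1084. The 8 B cell markers (186 to 254 against 64.0 to 187.9), the 14 T and NK cell markers (165 to 241 against 232 to 287) and the 12 endothelium markers (27682 to 44106 against 29214 to 38309) were summed in the same way. Of the members of these lists with 60 or more reads, 3 of 7 neutrophil, 1 of 4 T and NK cell and 1 of 12 endothelium markers passed as higher and 3 of 12 stroma markers as lower. Kidney epithelium markers went both ways, with 2 higher and 5 lower of 14. Among all genes with 60 or more reads, 8.2% passed as higher and 7.63% as lower, and the endothelium count lay near the former. In edgeR these shares were 3.22% and 2.8%. At an unadjusted p under 0.05 they were 14.4% and 14.1% in DESeq2 and 12.8% and 13% in edgeR. No B cell marker of 5 passed in DESeq2 or edgeR (1 lower and 0 higher at an unadjusted p under 0.05 in DESeq2). The B cell marker Ms4a1, with 59 reads just under the limit, was lower (log2 fold change -2.81, DESeq2 adjusted p 0.0453). It was not tested in edgeR. edgeR called 8 macrophage markers higher, and elsewhere only 1 kidney epithelium marker higher and 2 lower (unadjusted, 4 higher neutrophil and 3 lower stroma markers). Tfrc itself had 5229 ± 1434 normalised reads in Control and 5640 ± 1482 in knockout kidneys (mean ± SD, n = 3 each; DESeq2 adjusted p 0.853), so it does not check the group labels. Its reads were counted over the whole gene, of which only a part was floxed. In tissue RNA, fewer cells of a type and less RNA per cell cannot be told apart.

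The promoters of 3 members are shown: Tnfrsf12a and Tnfaip3, which passed in DESeq2 and edgeR, and Fas, which did not pass. Fas and Tnfaip3 carry motif letters. Each is a run from 250 bases before to 50 bases after a RefSeq transcript start (GRCm38.p6 table), and each matched the mm9 genome exactly once. Sequences run 5′ to 3′ along the gene's strand. Capitals mark the AP-1 motif TGANTCA or the NF-kB motif (GGG, any 2 bases, then TTTCC), searched on both strands. The motifs did not overlap each other.

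Tnfrsf12a, chr17:23814367-23814666, minus strand: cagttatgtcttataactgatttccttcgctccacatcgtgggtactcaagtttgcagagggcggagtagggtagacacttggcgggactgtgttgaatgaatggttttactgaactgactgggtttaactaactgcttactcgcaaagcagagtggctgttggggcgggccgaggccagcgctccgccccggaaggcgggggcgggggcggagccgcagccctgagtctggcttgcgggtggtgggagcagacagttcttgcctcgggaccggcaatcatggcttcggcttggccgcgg
Tnfaip3, chr10:18735167-18735466, minus strand: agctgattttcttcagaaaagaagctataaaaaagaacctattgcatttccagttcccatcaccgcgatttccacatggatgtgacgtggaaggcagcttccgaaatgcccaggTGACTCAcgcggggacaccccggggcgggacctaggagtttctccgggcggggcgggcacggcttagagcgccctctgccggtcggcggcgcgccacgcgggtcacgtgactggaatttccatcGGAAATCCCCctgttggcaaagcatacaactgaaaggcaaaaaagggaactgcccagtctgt
Fas, chr19:34364899-34365198, plus strand: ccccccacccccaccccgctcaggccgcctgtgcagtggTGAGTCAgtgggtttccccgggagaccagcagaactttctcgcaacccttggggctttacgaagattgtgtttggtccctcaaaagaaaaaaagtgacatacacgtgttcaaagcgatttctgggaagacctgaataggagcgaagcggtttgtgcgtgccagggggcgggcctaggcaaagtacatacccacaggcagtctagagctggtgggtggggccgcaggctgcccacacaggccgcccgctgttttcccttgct

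No capital appears in the Tnfrsf12a promoter, since neither motif occurs in that window. The Tnfaip3 promoter holds TGACTCA at bases -136 to -130 and the NF-kB motif, as the reverse complement GGAAATCCCC, at -12 to -3, whereas the other Tnfaip3 start listed by RefSeq, chr10:18731720-18732019, holds neither. The Fas promoter holds TGAGTCA at -211 to -205. Promoters were taken for 22 of the 30 members, 26 sequences in all, and Tnfrsf10b had none. Promoters on chromosome 18, where Tnfaip8 lies, were left out of this member set. The background of all mouse promoters was not filtered by chromosome. The AP-1 motif occurred in 6 of these (23.1%), against 7.81% of 32851 mouse promoters of that length, and the NF-kB motif in 2 (7.69%) against 1.63%. The 6 belong to 5 genes (Fas, Tnfaip3, Tnfaip6, Tnfsf13 and Tnfsf13b), since both Tnfsf13b windows hold the same stretch. The NF-kB motif lies in promoters of Tnfaip3 and Tnfrsf25. Of all these genes only Tnfaip3 passed in DESeq2. The promoters of Tnfrsf21, Tnfrsf1b and Tnfaip2, which passed, hold neither motif, like that of Tnfrsf12a. A match of letters describes the sequence only.

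Of the 30 members, 5 rose and 2 fell in TfR1 knockout kidneys at an adjusted p under 0.05 (DESeq2 Wald test on the whole table). The 5 that rose were the receptors Tnfrsf12a, Tnfrsf10b, Tnfrsf21 and Tnfrsf1b and the feedback inhibitor Tnfaip3, and the 2 that fell were Tnfaip2 and Tnfaip8. Among all genes with 60 or more reads, 8.2% were called higher and 7.63% lower. With a fold change of at least 2 added, 4 members were higher, against a background of 4.61%, and 0 were lower, against 4.69%. At an unadjusted p under 0.05 with no fold limit, 8 members were higher and 3 lower in DESeq2, against 14.4% and 14.1% of all genes, and 7 and 3 in edgeR, against 12.8% and 13%. edgeR's quasi-likelihood test called 3 of the 5 higher members (Tnfrsf12a, Tnfrsf10b and Tnfaip3) and 1 of the 2 lower members (Tnfaip2), against backgrounds of 3.22% and 2.8%. The libraries of the 2 groups did not overlap for 8 higher and 5 lower members, against 17.3% and 17.2% of all genes. The median log2 fold change over the 30 members was 0.36, beside 0.0084 over all genes with 60 or more reads.

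**Figure D1:**
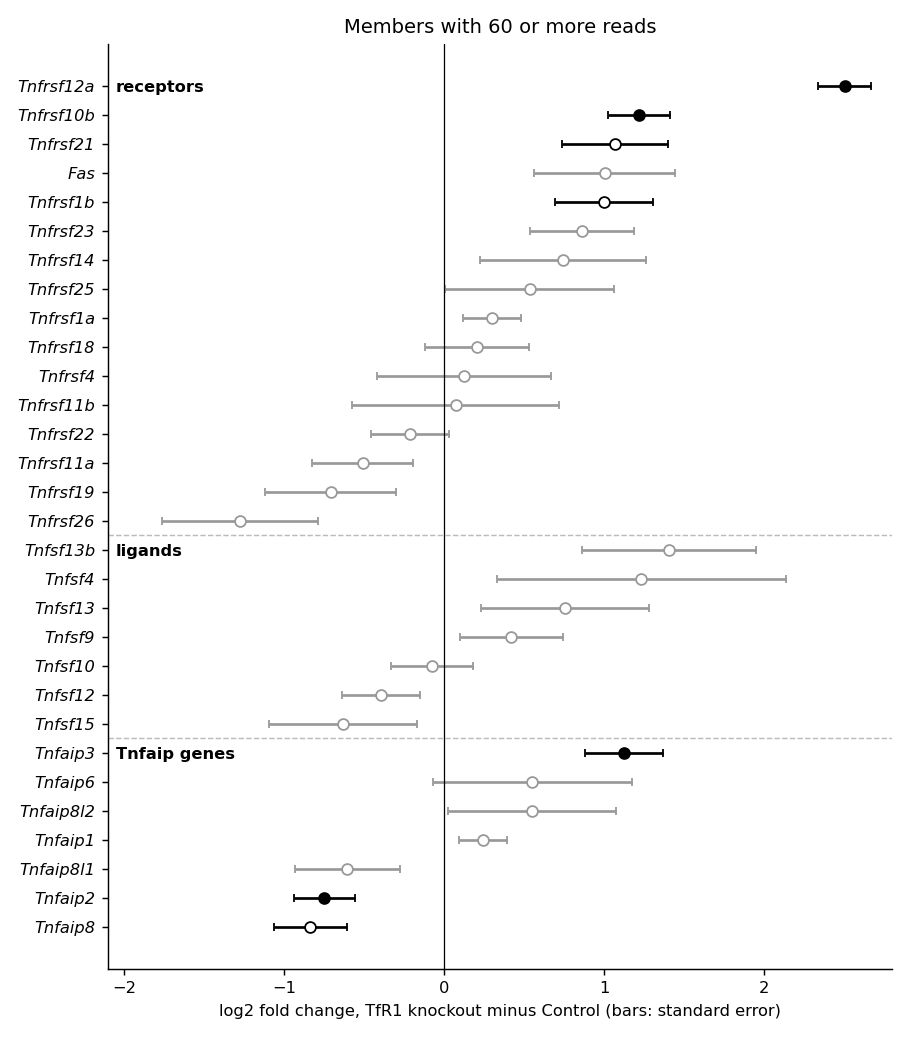
Log2 fold change (TfR1 knockout minus Control, x axis) of the 30 members with 60 or more reads, by role; bars are standard errors, black marks an adjusted p under 0.05 in DESeq2 and a filled point an adjusted p under 0.05 in edgeR. Tnfrsf12a stands farthest to the right at 2.50, and no ligand is black.

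The receptor for the cytokine TWEAK, Tnfrsf12a (also called Fn14; chromosome 17, 23812414 to 23814416), changed most. Normalised reads were 312, 371 and 310.0 in the Control libraries (values are given in replicate order throughout) and 1979.9, 1764 and 1875 in the knockout libraries. All 3 knockout libraries lay far above all 3 Control libraries, and the spread within each group was small. The means were 331 ± 34.7 and 1873 ± 108 (SD, n = 3 each), a 5.66-fold rise (log2 fold change 2.50, SE 0.16, DESeq2 adjusted p 5.42e-49, edgeR adjusted p 7.59e-04). Fn14 lacks a death domain, signals through TRAF adaptors and is known to be induced in injured tissue. Its exons share a stretch of at most 78 bases with Hcfc1r1 on the opposite strand, and the library kit is not stated to mark strand. Hcfc1r1 did not pass (log2 fold change 0.22, DESeq2 adjusted p 0.369).

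The ligand of Fn14 did not move with it. Tnfsf12 (TWEAK; chromosome 11, 69499752 to 69509351) had 221, 223 and 212 normalised reads in Control and 203, 129 and 166 in knockout libraries. Every knockout library was below every Control library, but the difference did not pass (log2 fold change -0.39, SE 0.24, DESeq2 adjusted p 0.296). A joint transcript of Tnfsf12 and its neighbour Tnfsf13 has a symbol of its own in the tables, with no reads, so how reads were divided there is uncertain.

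Death domain receptors formed the second group of receptors. Tnfrsf10b (chromosome 14, 70167279 to 70184210), the TRAIL receptor that can start apoptosis, had 175, 173 and 215 normalised reads in Control and 458, 408 and 438 in knockout libraries. The groups were far apart, with little spread inside either. The rise was 2.32-fold (log2 fold change 1.22, SE 0.19, DESeq2 adjusted p 3.37e-08, edgeR adjusted p 0.0142).

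Tnfrsf21 (death receptor DR6; chromosome 17, 43153504 to 43226137) had 2642, 3148 and 1292 normalised reads in Control and 4627, 5829 and 4406 in knockout libraries. The groups did not overlap, but Control replicate 3 stood well below the other Control libraries. The log2 fold change was 1.07 (SE 0.33, DESeq2 adjusted p 0.0129), and edgeR did not call it (adjusted p 0.0897). Without Control replicate 3 it was 0.77 and still passed (DESeq2 adjusted p 0.00335), and without TfR1 knockout replicate 2 the call was lost (adjusted p 0.0769).

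Fas (chromosome 19, 34365149 to 34402260), the receptor of Fas ligand, had 187, 148 and 271 normalised reads in Control and 219.8, 679 and 318 in knockout libraries. TfR1 knockout replicate 2 was high, TfR1 knockout replicate 1 lay inside the Control range, and the groups overlapped. Its log2 fold change of 1.00 (SE 0.44) did not pass (DESeq2 adjusted p 0.108). Without TfR1 knockout replicate 2 it was 0.42, and without TfR1 knockout replicate 1 it was 1.30 with an adjusted p of 0.014 (DESeq2).

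Tnfrsf1a (chromosome 6, 125299380 to 125312502), the main TNF receptor with a death domain, was among the most abundant members, at 1753 ± 137 normalised reads in Control and 2155 ± 304 in knockout kidneys (n = 3 each). The groups overlapped and the difference did not pass (log2 fold change 0.30, DESeq2 adjusted p 0.276). Tnfrsf25, the death domain receptor of Tnfsf15, ranged from 58.1 to 116 in Control and from 44.7 to 183 in knockout libraries (DESeq2 adjusted p 0.55).

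**Figure D2:**
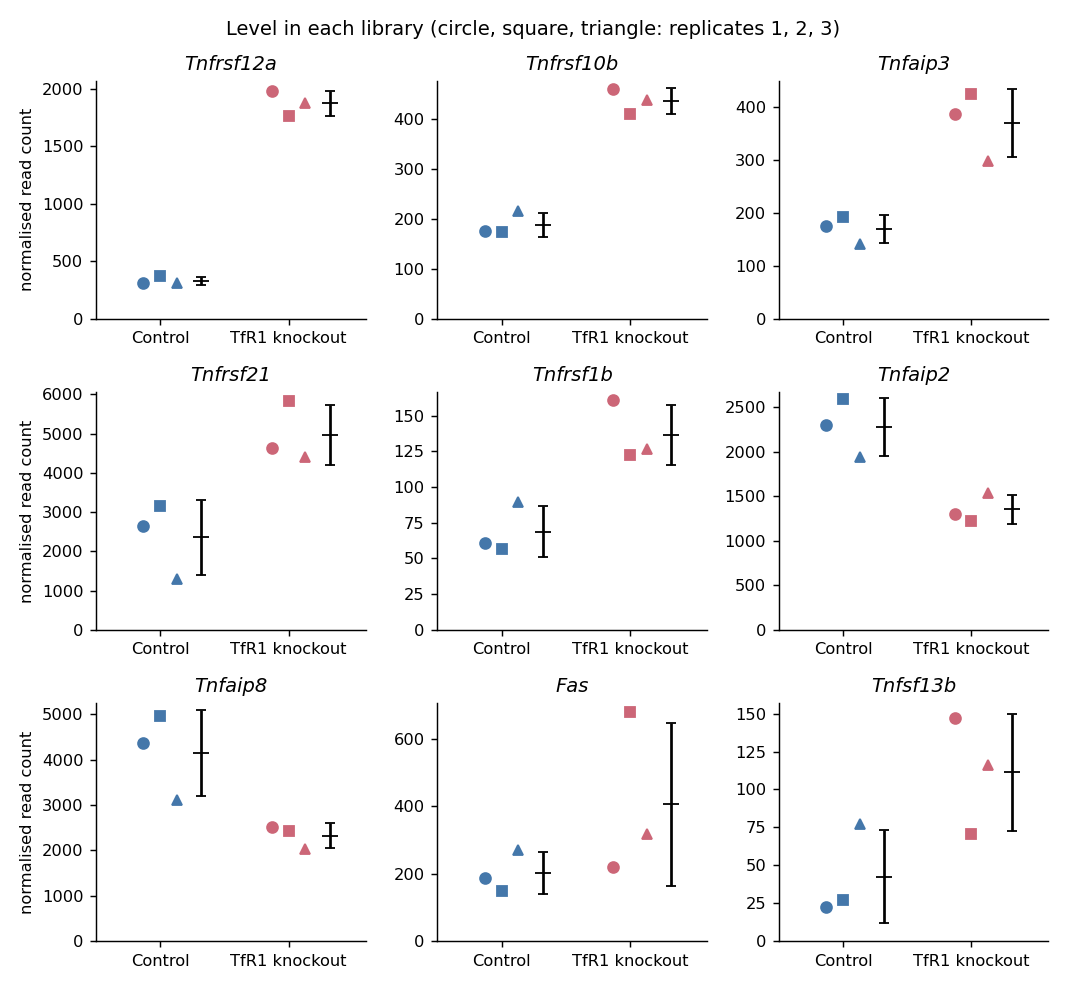
Normalised read count (y axis, from 0) in each library for the 7 members that passed and for Fas and Tnfsf13b; circles, squares and triangles are replicates 1, 2 and 3, and bars show the mean ± SD of 3 libraries. Groups are separate in the first 7 panels and overlap for Fas, where TfR1 knockout replicate 2 reaches 679, and for Tnfsf13b.

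Receptors without a death domain formed the next group. Tnfrsf1b (TNFR2; chromosome 4, 144803366 to 144836773), carried mainly by leukocytes and endothelium, had 61.0, 56.4 and 89.3 normalised reads in Control and 161, 123 and 127 in knockout libraries. The groups did not overlap, and Control replicate 3, with the highest macrophage sum of the Control libraries, was the highest of them. The log2 fold change was 1.00 (SE 0.31, DESeq2 adjusted p 0.0124), just under 2-fold, and edgeR did not call it (adjusted p 0.0882). The call was lost when any 1 of 4 libraries was left out (Control replicates 1 and 2, TfR1 knockout replicates 1 and 3), with adjusted p up to 0.151 in DESeq2. The part of the macrophage marker rise in this value was not tested.

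A cluster of receptor genes on chromosome 7 split in direction. Tnfrsf23 (150851714 to 150871777), which encodes a decoy receptor for TRAIL, had 63.5, 64.5 and 108 normalised reads in Control and 130.3, 129 and 166 in knockout libraries (log2 fold change 0.86, DESeq2 adjusted p 0.0503). Its neighbour Tnfrsf26 (150793568 to 150813858) had 52.8, 44.5 and 78.6 in Control and 24.9, 12.8 and 34.1 in knockout libraries (log2 fold change -1.27, DESeq2 adjusted p 0.0571). Neither group pair overlapped, and neither gene passed. Between them, the decoy receptor gene Tnfrsf22 had 459 ± 121 and 396 ± 28.7 reads (n = 3 each) and overlapped (DESeq2 adjusted p 0.616). These genes resemble each other in sequence, so the division of reads among them is uncertain.

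The bone and lymph node receptor RANK (Tnfrsf11a) had 162 ± 31.3 reads in Control and 113 ± 31.7 in knockout kidneys (DESeq2 adjusted p 0.298), and its soluble decoy osteoprotegerin (Tnfrsf11b) ranged from 19.1 to 62.7 and from 17.9 to 77.6 (DESeq2 adjusted p 0.96). The sign of the Tnfrsf11b difference depended on which library was left out. The remaining receptors, Tnfrsf4, Tnfrsf14, Tnfrsf18 and Tnfrsf19, had log2 fold changes between -0.71 and 0.74 and did not pass (lowest DESeq2 adjusted p 0.254).

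Summed over all 21 receptor genes, normalised reads were 6326, 6546 and 5532 in Control and 10776, 11753 and 10809 in knockout libraries, so the groups were separate. Tnfrsf12a and Tnfrsf21 together made up 29% to 53.7% of the sum in Control libraries and 58.1% to 64.6% in knockout libraries. Both genes rose in these same libraries, so their larger share is not a separate result. The other 19 receptors summed to between 3028 and 3930.0 in Control and to between 4159 and 4528 in knockout libraries. This sum is led by the most abundant genes and was not tested.

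Ligands were few and mostly low. No ligand of the 7 with 60 or more reads passed in DESeq2 or edgeR, with 1 higher and 0 lower at an unadjusted p under 0.05 in either tool, a share close to that of all genes (14.4% in DESeq2 and 12.8% in edgeR). That one was Tnfsf13b (BAFF, a survival factor for B cells made largely by myeloid cells; chromosome 8, 10006843 to 10035441). It had 22.3, 27.3 and 77.5 normalised reads in Control and 147, 70.4 and 116 in knockout libraries. Control replicate 3 lay above TfR1 knockout replicate 2, and the log2 fold change of 1.41 (SE 0.54) missed the threshold (DESeq2 adjusted p 0.0598). It passed without Control replicate 3 (log2 fold change 2.17, DESeq2 adjusted p 1.19e-04) and without TfR1 knockout replicate 2 (1.65, adjusted p 0.0438). Control replicate 3 also held the highest macrophage, stroma and endothelium sums and the lowest kidney epithelium sum of the Control libraries. The link was not tested.

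TRAIL (Tnfsf10; chromosome 3, 27215950 to 27241349), the ligand of Tnfrsf10b, was the most abundant ligand. It had 787, 792 and 1221 normalised reads in Control and 979, 710.1 and 965 in knockout libraries, and the groups overlapped (log2 fold change -0.08, SE 0.26, DESeq2 adjusted p 0.886). The costimulatory ligands Tnfsf4 and Tnfsf9, the B cell factor Tnfsf13 and the ligand Tnfsf15 had log2 fold changes from -0.63 to 1.23 and did not pass (lowest DESeq2 adjusted p 0.363). For Tnfsf9 the groups were nevertheless separate, at 43.1 to 45.4 in Control and 51.2 to 66.6 in knockout libraries.

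TNF itself was barely detected. Tnf (chromosome 17, 35336326 to 35338952) had 10, 4 and 8 reads in Control and 13, 0 and 3 in knockout libraries. Fasl had at most 2 reads in any library, and Tnfsf11, the RANK ligand, at most 5. No difference was detectable at this depth for these 3 ligands, nor for Tnfsf8, Tnfsf14 and Tnfsf18, with at most 10 reads in a library. The B cell receptors of BAFF were at the same level. Tnfrsf13b had at most 3 reads in a library and Tnfrsf17 at most 4, while Tnfrsf13c had 5, 4 and 9 reads in Control and 0, 1 and 1 in knockout libraries. Tnfrsf8 had at most 1 read and Tnfrsf9 at most 9. Tnfaip8l3, with at most 15 reads, completes the 12 members under the limit.

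Tnfaip genes moved in both directions. Tnfaip3 (A20; chromosome 10, 18720716 to 18735463), a ubiquitin-editing enzyme that shuts off NF-kB signalling, had 175, 192 and 139.9 normalised reads in Control and 386, 423 and 298 in knockout libraries. Each knockout library exceeded each Control library. The rise was 2.18-fold (log2 fold change 1.12, SE 0.24, DESeq2 adjusted p 1.20e-04, edgeR adjusted p 0.0314), and it passed without any 1 library. Its promoter near the upstream start is the one shown above with both motifs.

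Tnfaip2 (chromosome 12, 112680680 to 112693229), which takes part in forming membrane tubes between cells, had 2299, 2590.4 and 1942 normalised reads in Control and 1299.7, 1228 and 1539 in knockout libraries. The groups were separate, and the decrease passed both tests (log2 fold change -0.75, SE 0.19, DESeq2 adjusted p 0.00161, edgeR adjusted p 0.036). It was lost without Control replicate 2 (DESeq2 adjusted p 0.0552).

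Tnfaip8 (chromosome 18, 50139081 to 50266827), a regulator of cell death, had 4366, 4958 and 3112 normalised reads in Control and 2522, 2435 and 2018 in knockout libraries. The groups were separate, with Control replicate 3 nearest to the knockout libraries. The log2 fold change was -0.83 (SE 0.23, DESeq2 adjusted p 0.00384), and edgeR placed it just over the threshold (adjusted p 0.0504). The call was lost when replicate 1 or 2 of the Control group, or replicate 3 of the knockout group, was left out (DESeq2 adjusted p up to 0.0712). Its relatives Tnfaip8l1 and Tnfaip8l2 had log2 fold changes of -0.60 and 0.55 and did not pass. Tnfaip1, an adaptor of a ubiquitin ligase, had 2066 ± 25.8 and 2442 ± 251 reads with separate groups (log2 fold change 0.24, DESeq2 adjusted p 0.292), and the hyaluronan-binding gene Tnfaip6 overlapped (DESeq2 adjusted p 0.609).

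**Figure D3:**
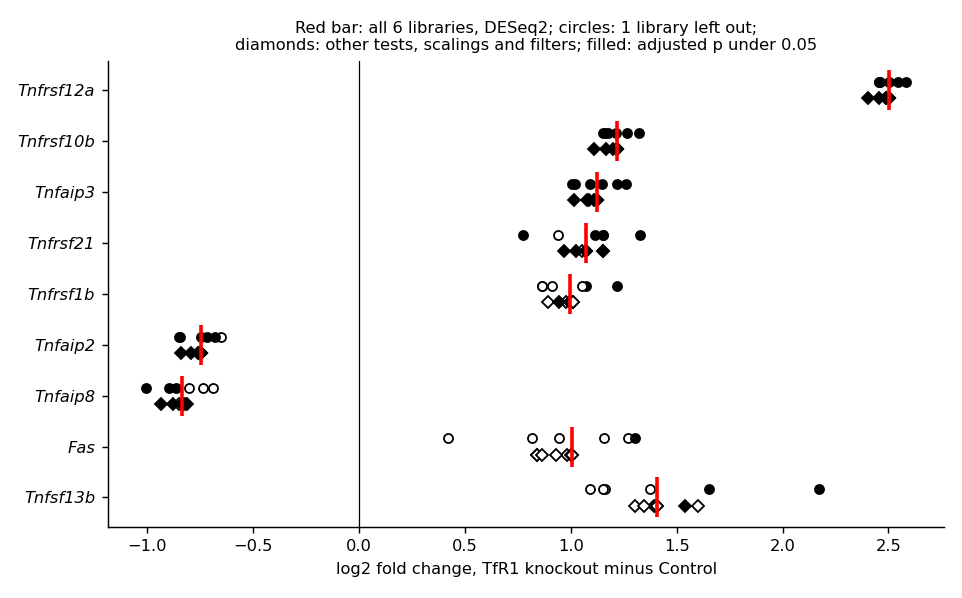
Log2 fold change (TfR1 knockout minus Control, x axis) of 9 members with all libraries (red bar), without each library in turn (circles) and under other tests, scalings and filters (diamonds); filled symbols have an adjusted p under 0.05. Every symbol of Tnfrsf12a, Tnfrsf10b and Tnfaip3 is filled, and the circles of Fas run from 0.42 to 1.30.

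Levels of different genes were compared per length, as normalised reads per kb of exon. In Control kidneys the highest members were Tnfaip8 (942 ± 214), Tnfrsf1a (675 ± 52.8) and Tnfrsf21 (651 ± 265; SD, n = 3 each), and their 3 ranges overlapped (707 to 1127, 624 to 729 and 356 to 868). Tnfrsf12a came sixth of the 30, at 344 ± 36.0. In knockout kidneys Tnfrsf12a came first, at 1945 ± 112, and its range (1832 to 2056) lay above that of Tnfrsf21 (1215 to 1608), the next in order. Tnfrsf21 in turn lay above Tnfrsf1a (698 to 921). The ligands Tnfsf10 and Tnfsf12, the most abundant in Control kidneys, stood at 177 ± 47.3 and 144 ± 3.77 in Control and at 168 ± 28.7 and 109 ± 24.3 in knockout kidneys, where Tnfsf13b (114 ± 39.6, against 43.3 ± 31.3 in Control) overlapped both. Exon lengths are those of all annotated exons of a gene joined, which may exceed the transcript used in kidney.

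**Figure D4:**
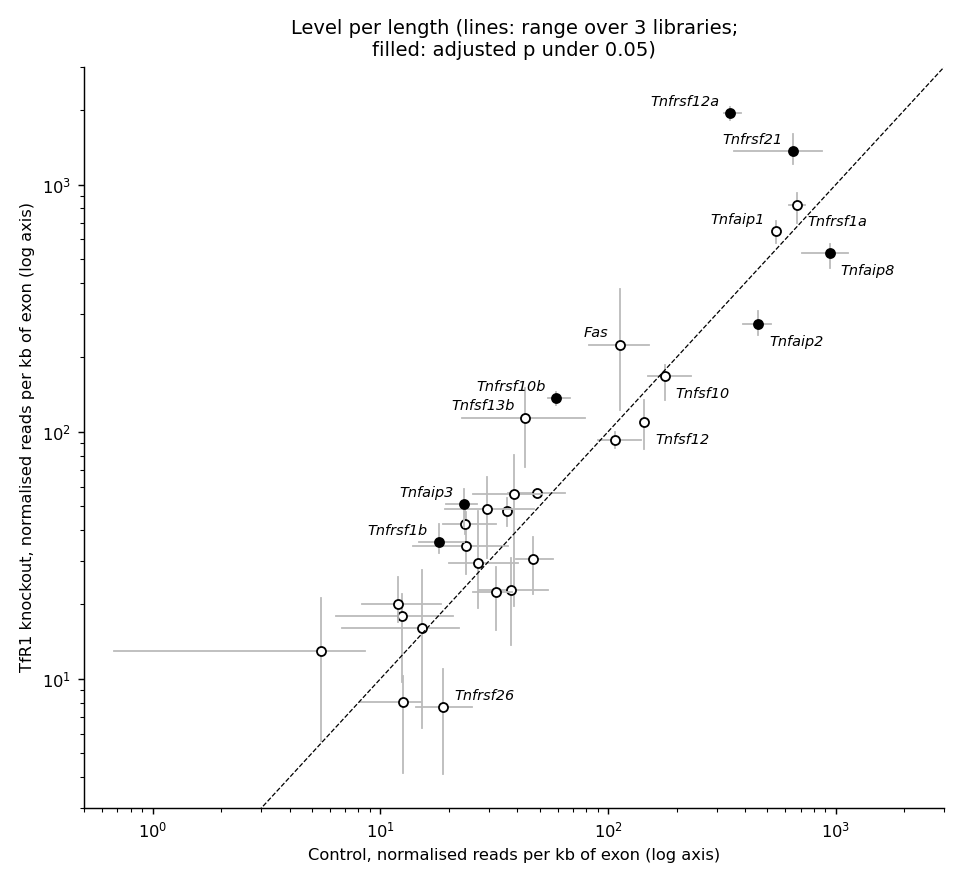
Normalised reads per kb of exon in Control (x axis) and TfR1 knockout (y axis) kidneys for the 30 members, both axes logarithmic; lines show the range over 3 libraries, the dashed line equality, and filled points an adjusted p under 0.05. Tnfrsf12a lies highest, at 1945 in knockout against 344 in Control kidneys.

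The symbol rule misses superfamily genes with other names, and 12 of these were listed, 8 of them with 60 or more reads. Eda2r (XEDAR), the receptor for one form of ectodysplasin and a known p53 target, was the only one that passed. It had 15.7, 10.9 and 11.8 normalised reads in Control and 226, 249 and 213 in knockout libraries. Its log2 fold change was larger than that of any member (log2 fold change 4.15, SE 0.33, DESeq2 adjusted p 6.05e-33, edgeR adjusted p 0.00121). The other 7 had log2 fold changes from -1.41 to 0.08, and the median over the 8 was -0.63. Lta, Cd40lg, Cd70 and Cd27 had fewer than 60 reads.

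Genes that act below the receptors were taken as a list of 42 adaptors, kinases, ubiquitin enzymes and NF-kB subunits, all with 60 or more reads. Of these, 8 rose and 0 fell (DESeq2; 16 higher and 1 lower at an unadjusted p under 0.05, and 5 higher and 0 lower in edgeR), with a median log2 fold change of 0.33. Among all genes these shares were 8.2% higher and 7.63% lower in DESeq2, 14.4% and 14.1% unadjusted, and 3.22% and 2.8% in edgeR, and they serve as the background for the NF-kB and p53 target lists too. Relb, an NF-kB subunit of the non-canonical arm, had 199.5, 179.97 and 239 normalised reads in Control and 419.7, 356 and 361 in knockout libraries (log2 fold change 0.88, DESeq2 adjusted p 5.86e-04, edgeR adjusted p 0.0445). Map3k14, the kinase that starts that arm, had a log2 fold change of 0.82, Nfkbia, the inhibitor that NF-kB itself induces, of 1.16, and the death receptor caspase Casp8 of 0.64. The groups did not overlap for any of these 4, and edgeR called all 4. The other 4 that rose, named to complete the count, were Chuk, Nfkb2, Birc3 and Tnip1 (log2 fold changes 0.87, 0.74, 0.99 and 0.52), of which edgeR called Chuk only. Leaving out Control replicate 1 or 2 reduced the count of higher genes to 4 or 5.

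A textbook list of NF-kB targets held 32 genes with 60 or more reads, of which 18 rose and 1 fell (edgeR 12 and 0; median log2 fold change 1.14). Lcn2, Saa3, Nfkbiz and Cebpd had the lowest adjusted p, with log2 fold changes of 2.84, 3.33, 1.76 and 1.74, and all 4 were also called by edgeR. Saa3, an acute phase gene, had 767 normalised reads in TfR1 knockout replicate 1 against 207 and 289 in replicates 2 and 3, and at most 51.7 in Control libraries. The gene that fell was Mmp9 (log2 fold change -1.21, DESeq2 adjusted p 0.00593), and edgeR did not call it (adjusted p 0.0569). Several of these genes are also made by leukocytes, and the part of the rise in macrophage and neutrophil markers was not tested.

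Of 23 listed p53 targets, 15 rose and 0 fell (DESeq2; 17 higher and 0 lower at an unadjusted p under 0.05; edgeR 9 and 0), with a median log2 fold change of 1.11. Pmaip1 rose from 93.2 ± 5.03 to 727 ± 161 normalised reads (n = 3 each; DESeq2 adjusted p 5.48e-31, edgeR adjusted p 0.0015), and Zmat3 from 650.1 ± 74.5 to 1733 ± 231 (DESeq2 adjusted p 1.49e-11, edgeR adjusted p 0.00505). The study treats Cdkn1a as a target of the transcription factor HIF1alpha, and p53 activity itself was not tested. Cdkn1a and Ccng1 were highest in TfR1 knockout replicate 2 (10064 and 11846 normalised reads), as were Pmaip1 and Zmat3. Fas was also highest in that library, while Tnfrsf10b was lowest there among the knockout libraries. Other listed targets differed: Btg2 and Gdf15 were highest in TfR1 knockout replicate 1 (8785 and 2323), and Gtse1 was lowest in replicate 2. The link was not tested.

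**Figure D5:**
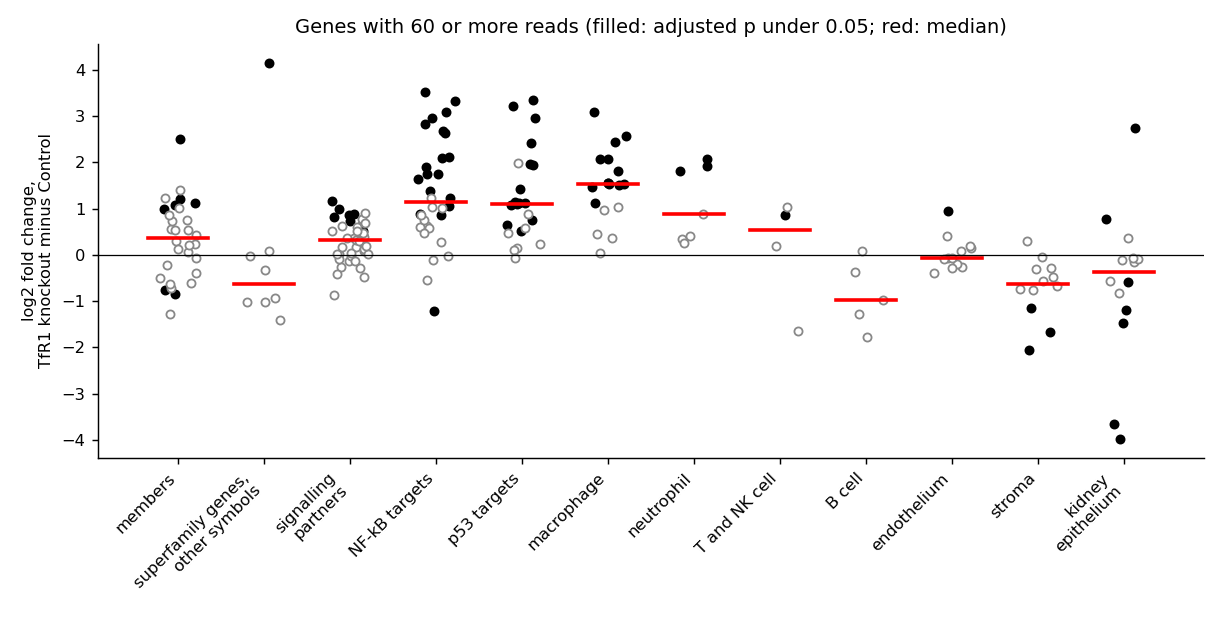
Log2 fold change (TfR1 knockout minus Control, y axis) of each gene with 60 or more reads in the member set, 4 related gene lists and 7 marker lists; filled points have an adjusted p under 0.05 and red lines are medians. The median is 0.36 for members, 1.14 for NF-kB targets, 1.11 for p53 targets and 1.53 for macrophage markers.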

How the data were processed

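RNA from 6 kidneys (3 Control, 3 TfR1 knockout) was sequenced from Illumina TruSeq poly-A libraries. Per the labels and the study's methods, the authors used CASAVA 1.8.2, Trimmomatic, TopHat2 2.0.11 against mm9 and HTSeq, and deposited raw counts per gene symbol, with no normalization. The annotation used for counting is not given in the sources used here. Groups and replicate numbers came from the labels, which name no batch. The study's supplement counts replicates as mice (n = 3 per model). No pair of replicates agreed within counting noise (chi-square per degree of freedom at least 10.6).

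DESeq2 1.42.0 (R 4.3.3) was run on the whole table with a Wald test. Size factors were median ratios, p-values were adjusted by Benjamini-Hochberg, and independent filtering was tuned at 0.05, which gave 16509 genes an adjusted p (lowest mean count 3.51). DESeq2, 2-fold and 0.05 are the study's settings. The study reports fewer genes past them than the 728 higher and 736 lower found here, and the cause was not tested. A normalised read count is the count divided by the size factor. Alternatives were edgeR 4.0.16 (quasi-likelihood, TMM, 15308 genes), limma 3.58.1 with voom, other scalings and filters, a replicate block, and fits that lacked 1 library. The members and lists were chosen with earlier results of these data known, and lists count genes with 60 or more reads. Members that passed were named, with a preset set of 17 others or the same, and up to 4 passing genes with the lowest adjusted p of each further list. A few further genes were named to complete a count or to show values that went the other way. Positions and exon lengths came from GENCODE vM1 (NCBIM37, the mm9 build).

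On simulated counts for this comparison (19985 genes, 200 changed 2- or 4-fold), DESeq2 recovered 48.3% of 2-fold and 95.6% of 4-fold genes, and 24.2% of the genes it called had not been changed. For edgeR these were 27.6%, 87.6% and 2.38%, so edgeR's result is given beside the DESeq2 calls of members and lists. In the real counts DESeq2 called more genes (1255 higher and 1168 lower among those with 60 or more reads) than the simulation changed. The share of unchanged genes among calls depends on how many genes change, so the simulated shares do not carry over to these data.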

Additional observations from a re-analysis of the deposited data

How the results depend on the processing

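Over the alternatives, 175 values of single named members stayed on their side of the threshold, 17 lost their call, 4 gained one and none changed sign while called. The 175 include differences that were not called and changed sign, among them values of Tnfrsf11b and Tnfsf10. Tnfrsf12a, Tnfrsf10b and Tnfaip3 kept their calls under each other test, scaling and filter, with the block, and without any 1 library. edgeR and limma-voom each called 3 higher and 1 lower member against 5 and 2; the cause was not tested. Over all genes with a 2-fold change, 728 higher and 736 lower genes became 380 and 353 in edgeR and 365 and 372 in limma-voom. edgeR called 5 signalling partners higher against 8, 9 p53 targets against 15 and 0 NF-kB targets lower against 1. limma-voom called 10 NF-kB targets higher against 18 and 0 lower. Total-count scaling moved the median log2 fold change of all genes from 0.0084 to -0.0962; Tnfrsf1b then missed the threshold (DESeq2 adjusted p 0.0548). Under total-count and upper-quartile scaling 1 superfamily gene with another symbol passed as lower, against 0.

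Leaving out 1 library gave 4 to 7 higher and 0 to 2 lower members (0 without Control replicate 2, 1 without Control replicate 1 or TfR1 knockout replicate 3), 4 to 6 higher and 0 to 1 lower members at 2-fold (1 without Control replicate 3), and a median over members of 0.24 to 0.43. The same fits gave 537 to 821 higher and 498 to 1146 lower genes in all, the latter highest without TfR1 knockout replicate 1. Signalling partners ranged from 4 to 11 higher and 0 to 2 lower, NF-kB targets from 16 to 22 and 0 to 1, p53 targets from 10 to 16 higher and superfamily genes with other symbols from 0 to 1 lower (1 without TfR1 knockout replicate 1 or 2). The 4 higher signalling partners came without Control replicate 1 and the 2 lower ones without TfR1 knockout replicate 1. Lower NF-kB targets were 0 without Control replicate 3 or TfR1 knockout replicate 3. Without Control replicate 3 and TfR1 knockout replicate 2 together, an alternative chosen after seeing the data, 8 members were higher and 2 lower, of which 5 and 1 passed 2-fold. Read minimums of 30 and 120 left the counts of members within 1.5 times.

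Deviations of same-numbered libraries correlated at -0.0402, 0.0588 and 0.0892, too little to treat equal numbers as pairs. With the replicate block, Tnfrsf1b missed the threshold and Tnfsf13b passed (DESeq2 adjusted p 0.0716 and 0.0217), 1 superfamily gene with another symbol was lower and 0 NF-kB targets were lower. Depth limits what can be said of Tnf, Fasl and the 10 other members under 60 reads.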
